A study of Mus musculus with 2 samples.

Results

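The carboxylesterase genes of mouse liver were compared between Pgrmc1 KO and WT livers. The members were 10 genes of the Ces1, Ces2 and Ces3 families, taken by symbol from the deposited table of 24054 genes: Ces1c, Ces1d, Ces1e, Ces1f, Ces1g, Ces2a, Ces2c, Ces2e, Ces3a and Ces3b. The table holds 17 genes with such a symbol, and the other 7 (Ces1a, Ces1b, Ces2b, Ces2d-ps, Ces2f, Ces2g and Ces2h) are described beside them. The 10 members are the most abundant of the 17, so that their higher level is no finding. The KO library was made from male mice labelled C57BL/6, aged 8 to 12 weeks, with the genotype Pgrmc1 -/Y, whose whole body lacks exons 1 and 2 of the X-linked gene. The floxed allele was made in C57BL/6N and deleted with the Sox2-Cre line B6.Cg-Tg(Sox2-cre)1Amc/J. The WT library was made from WT male mice with the same strain and age labels. Neither group carried a treatment in the labels, and whether the WT mice carried Cre or were littermates is not given in the sources used here. Liver RNA of 5 mice was combined in equal masses (2.5 μg each) for each genotype, so that 1 library stands for 5 mice and the spread between mice cannot be measured. No difference below has a replicate check, and no p-value was computed. The question for these genes is whether loss of Pgrmc1, a membrane protein that binds cytochromes P450, goes with altered transcript levels of another large family of drug-metabolizing enzymes of the endoplasmic reticulum (ER).

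Carboxylesterases are serine hydrolases that cleave ester, amide and thioester bonds of drugs, prodrugs, pyrethroid insecticides and endogenous lipids. Most members are glycoproteins of the ER lumen, held there by a short signal at the carboxyl terminus that KDEL receptors recognize, while a member without this signal can be secreted into plasma. Ces1 enzymes are known for acyl esters with small alcohol groups and for triacylglycerol and cholesteryl ester hydrolysis, and Ces2 enzymes for esters with large alcohol groups. In mouse liver, Ces1d (also named triacylglycerol hydrolase, TGH) mobilizes stored lipid for the assembly of very low density lipoprotein (VLDL).

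All members lie on chromosome 8 (GRCm38, the mm10 assembly, RefSeq coordinates) in 2 groups of neighbouring genes. The Ces1 genes occupy 93020214 to 93379777 on the minus strand, and the Ces2 and Ces3 genes occupy 104734003 to 105093929 on the plus strand. The Ces1 stretch holds 8 carboxylesterase genes, among them Ces1h, which has no deposited level and is not described here. The 2 stretches are of similar length, 359.6 and 359.9 kb. The gene next to the Ces1 group on its lower-coordinate side is Slc6a2, a noradrenaline transporter, listed at 0.04 TPM (KO) and 0.02 TPM (WT). Each Ces1 gene in the list of members has 13 or 14 exons, each Ces2 member 12 and each Ces3 member 13, and their coding sequences are 1662 to 1713 bases long. Within a family, coding sequences were 72.3% to 95.3% identical over 14 pairs (median 78.0%), and between families 53.9% to 58.6% over 31 pairs (median 56.6%). Ces3a and Ces3b were the most alike, at 95.3%.

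The bases around the catalytic serine are shown because they are what makes each member a serine hydrolase, and because some of them differ between the 3 families. They were read from GENCODE M21 transcripts, 5′ to 3′ on the coding strand. Capitals mark the 18 coding bases of the serine motif, with 9 bases on each side in lower case, and the positions are those of the capitals on GRCm38 (minus strand for Ces1, plus strand for Ces2 and Ces3).
Ces1c, exon 5, chr8:93123118-93123135: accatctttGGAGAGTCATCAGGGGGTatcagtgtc
Ces1d, exon 5, chr8:93187761-93187778: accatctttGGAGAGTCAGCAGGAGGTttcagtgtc
Ces1e, exon 5, chr8:93217517-93217534: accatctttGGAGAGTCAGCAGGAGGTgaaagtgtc
Ces1f, exon 5, chr8:93269992-93270009: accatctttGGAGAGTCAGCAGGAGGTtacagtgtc
Ces1g, exon 5, chr8:93328396-93328413: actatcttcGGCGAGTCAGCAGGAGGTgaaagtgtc
Ces2a, exon 5, chr8:104737410-104737427: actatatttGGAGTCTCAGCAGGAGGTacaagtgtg
Ces2c, exon 5, chr8:104850768-104850785: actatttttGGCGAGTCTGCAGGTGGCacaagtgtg
Ces2e, exon 5, chr8:104929815-104929832: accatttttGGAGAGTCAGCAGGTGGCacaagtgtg
Ces3a, exon 5, chr8:105051586-105051603: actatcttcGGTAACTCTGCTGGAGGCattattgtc
Ces3b, exon 5, chr8:105086676-105086693: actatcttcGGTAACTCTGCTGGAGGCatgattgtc
All 10 motifs lie in exon 5. Of the 18 motif bases, 9 were the same in all 10 members, 15 in the 5 Ces1 members, 12 in the 3 Ces2 members and 18 in Ces3a and Ces3b. The codon before the serine codon was GAG in 7 members, GTC in Ces2a and AAC in both Ces3 genes. The pattern GGNNNNTCNNNNGGNGGN, searched in frame on the coding strand, was present in 262 of 21526 mouse genes with a complete coding sequence (1.22%).

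The end of the coding sequence is shown because it holds the ER retention signal. For 7 members that cover each kind of ending, capitals mark the last 12 coding bases, to which the positions refer, after 12 further coding bases and before the stop codon in lower case.
Ces1c, exon 13, chr8:93099168-93099179: cctactgaacacACAGAACACAAAtga
Ces1d, exon 14, chr8:93166258-93166269: tcccacagggaaCATGTTGAGCTCtga
Ces1g, exon 14, chr8:93302908-93302919: tcccatagggaaCATGTTGAACTGtga
Ces2a, exon 12, chr8:104741402-104741413: tctcaggacaagCATGCAGAGCTGtag
Ces2e, exon 12, chr8:104933700-104933711: tctcaggagaggCACAAAGAGTTGtag
Ces3a, exon 13, chr8:105058089-105058100: agcaggaaagttCCAGAGGAGCTCtga
Ces3b, exon 13, chr8:105093248-105093259: agcaggaaagttCCAGAGGAGCTCtga
The last 12 bases followed the pattern CANNNNGANNTN in 7 of the 10 members, namely Ces1d, Ces1e, Ces1f, Ces1g and the 3 Ces2 genes. The coding sequences of Ces1c, Ces3a and Ces3b ended in other letters, and the ending of Ces3a was the same as that of Ces3b. This Ces3 ending keeps the GANNTN part of the pattern and closes with GAGCTC, as that of Ces1d does. The ending of Ces1c keeps neither CA at its start nor GANNTN. The pattern is narrow, and whether the Ces3 ending serves as a retention signal was not tested. Among all mouse genes with a complete coding sequence, 88 of 21526 (0.409%) ended in this pattern. Ces1c is known as the plasma carboxylesterase of rodents, made by the liver and secreted.

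Levels are given as TPM, a measure of a transcript's share of all transcripts with a correction for its length, so that genes can be compared with each other. The deposited values total 1005325 in KO and 994702 in WT, so that equal shares give a slightly higher TPM in KO. Pgrmc1 itself was at 0.68 TPM in the library labelled KO and at 949.49 TPM in the one labelled WT. In whole liver RNA, fewer cells of a type and less RNA per cell cannot be told apart. The 10 members summed to 5666.56 TPM (KO) and 5444.91 TPM (WT), which is 0.564% and 0.547% of all TPM in the table. Their order by level was the same in both libraries. Ces1c was highest, with 1906.16 TPM (KO) and 1930.67 TPM (WT), and it ranked 62 among all genes by mean level. Ces3a followed, with 1712.52 TPM (KO) and 1534.33 TPM (WT). These 2 genes made up 63.86% of the members' sum in KO and 63.64% in WT. The other 8 members spanned 48.57 to 518.1 TPM in KO and 51 to 472.91 TPM in WT. Ces1e and Ces1g lay closest together in KO, at 129.01 and 127.48 TPM, and in WT were at 133.43 and 117.29 TPM in WT. Without replicates, whether any neighbours in the order differ beyond the spread between mice could not be tested.

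**Figure D1:**
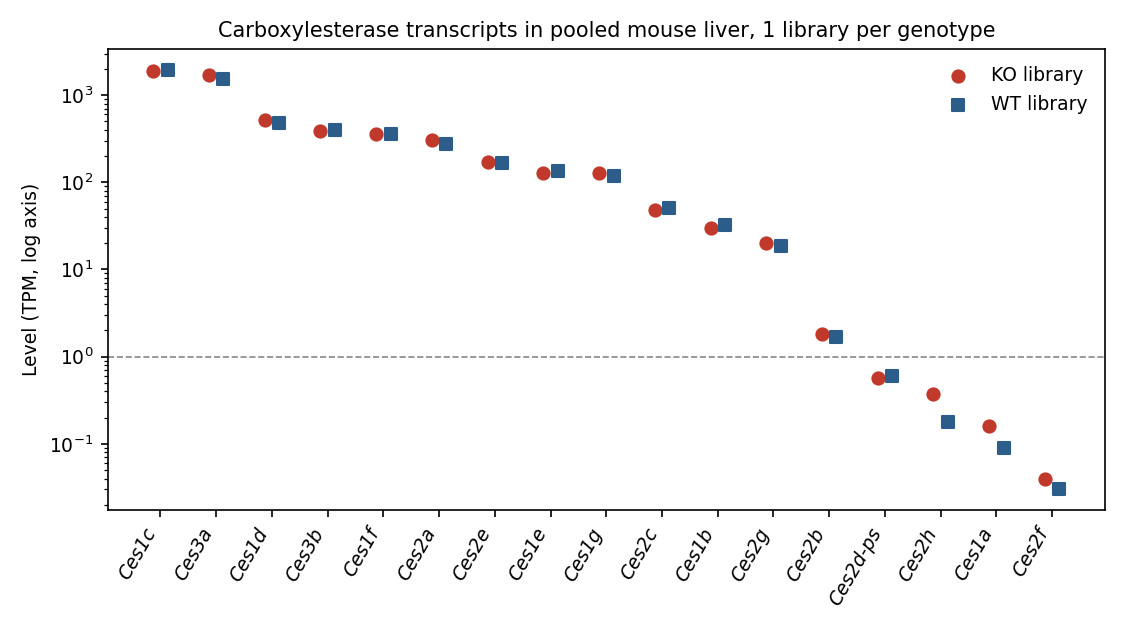
Level in TPM (log axis) of the 17 genes with a Ces1, Ces2 or Ces3 symbol, ordered by mean level, with a circle for the KO library and a square for the WT library (1 library each, so no error bar). The 2 symbols of each of the 10 members lie close together, from Ces1c at 1906.16 and 1930.67 TPM to Ces2c at 48.57 and 51 TPM; the dashed line is the filter at a mean of 1 TPM.

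No member passed the fold thresholds, and the folds lay between 0.953 and 1.116. Change is given as log2((KO TPM + 1)/(WT TPM + 1)), and a gene that averaged 1 TPM or more over both libraries was called higher from a fold of 1.4 upward and lower from 0.6 downward. All 10 members passed the filter on low values, and 0 were called in either direction. Over all 11623 genes tested, 1.21% were called higher and 0.301% lower, so that 0 calls among 10 genes is close to the background. On the log2 scale 0.6 lies farther from 1 than 1.4 does, so that the lower threshold is the stricter. With the mirror of 1.4 (0.714) in its place, 141 genes were higher and 118 lower, and 0 members were called. The members' log2 changes ran from -0.07 for Ces2c to 0.16 for Ces3a with a median of 0.009, and 5 of the 10 lay above 0. For all genes tested the median was -0.013, and 45.8% lay above 0. The 5th and 95th percentiles of all genes tested were -0.27 and 0.27, and every member lay between them.

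Because TPM keep no depth, the precision of each change was taken from the authors' normalized means. Their low values fall mostly on multiples of the value of 1 read, which gives 22086707 estimated reads in KO and 29710376 in WT over the genes of that table. The members rest on 1231.7 (Ces2c) to 44838.9 (Ces1c) estimated reads in KO and on 1729.3 to 60697.2 in WT. The 95% Clopper-Pearson intervals below are those of the KO/WT ratio of these means. They cover counting error only, and not the spread between mice. Over all 11543 genes with both measures, 11.7% had an interval above 1 and 13.4% one below 1, and among the 1013 genes from 100 TPM upward these shares were 35.0% and 24.1%. The ratio of means lay slightly above the ratio of TPM for every member, by at most 0.018 on the log2 scale.

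Among the Ces1 genes, Ces1d and Ces1g were higher in KO beyond counting error, and Ces1c, Ces1e and Ces1f were not. Ces1d (Entrez gene 104158, chromosome 8, 93166072 to 93197804) stood at 518.1 TPM (KO) and 472.91 TPM (WT), a fold of 1.095 with an interval of 1.081 to 1.133. Ces1g (Entrez gene 12623, 93302369 to 93337209), a hepatic lipid hydrolase that RefSeq also lists as Ces1, stood at 127.48 TPM (KO) and 117.29 TPM (WT), a fold of 1.086 with an interval of 1.051 to 1.145. These are the closest pair of the Ces1 members in sequence, at 81.5% identity, and their ratio in level was 4.064 in KO and 4.032 in WT. Ces1c (Entrez gene 13884, 93099015 to 93131283) had a fold of 0.987 with an interval of 0.986 to 1.01. For Ces1f (Entrez gene 234564, 93256236 to 93279766), listed as TGH-2 in RefSeq, the levels were 353.8 TPM (KO) and 359.2 TPM (WT), a fold of 0.985 with an interval of 0.968 to 1.023. Ces1e (Entrez gene 13897, 93201218 to 93229631), the egasyn that holds beta-glucuronidase in the ER, stood at 129.01 TPM (KO) and 133.43 TPM (WT), a fold of 0.967 with an interval of 0.935 to 1.021. The intervals of these 3 genes held a ratio of 1. For Ces1c the TPM fold lies near the lower end of its interval, so that this depends on the scaling. The sum of the 5 Ces1 members was 3034.55 TPM (KO) and 3013.5 TPM (WT), a ratio of 1.007. As a share of all TPM it was 0.302% in KO and 0.303% in WT, so that its direction depends on the scaling.

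Among the Ces2 genes, Ces2a was higher in KO beyond counting error, while the intervals of Ces2c and Ces2e held a ratio of 1. Ces2a (Entrez gene 102022, 104734003 to 104741634), a pyrethroid hydrolase, stood at 308.57 TPM (KO) and 277.39 TPM (WT), a fold of 1.112 with an interval of 1.09 to 1.158. Ces2e (Entrez gene 234673, 104926260 to 104934672), another pyrethroid hydrolase, stood at 171.04 TPM (KO) and 166.75 TPM (WT), a fold of 1.026 with an interval of 0.995 to 1.076. Ces2c (Entrez gene 234671, 104847068 to 104854483), an acylcarnitine hydrolase and the least abundant member, stood at 48.57 TPM (KO) and 51 TPM (WT), a fold of 0.953 with an interval of 0.894 to 1.036. The 3 genes summed to 528.18 TPM (KO) and 495.14 TPM (WT), a ratio of 1.067. Without Ces2a that log2 ratio was 0.012, in place of 0.093.

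The Ces3 genes, which are abundant in liver and among the less studied carboxylesterases, differed from each other although their coding sequences are nearly alike. Ces3a (Entrez gene 382053, 105048576 to 105061928) stood at 1712.52 TPM (KO) and 1534.33 TPM (WT), a fold of 1.116 with an interval of 1.115 to 1.143. Ces3b (Entrez gene 13909, 105083733 to 105093929) stood at 391.31 TPM (KO) and 401.94 TPM (WT), a fold of 0.974 with an interval of 0.961 to 1.011. The 2 intervals do not overlap, and the level of Ces3a relative to Ces3b was 4.376 in KO and 3.817 in WT. The 2 genes share 177 of their windows of 100 bases, which is 9.09% of the windows of the Ces3a transcript and 7.68% of those of Ces3b, and RSEM divides reads from such stretches between them. Their sum, which that division should affect little, was 2103.83 TPM (KO) and 1936.27 TPM (WT), a ratio of 1.087. The difference of 178.19 TPM in Ces3a was most of the 221.65 TPM by which the 10 members together were higher in KO, and without Ces3a the ratio of the members' sums was 1.011 in place of 1.041, while without Ces1c it was 1.07.

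**Figure D2:**
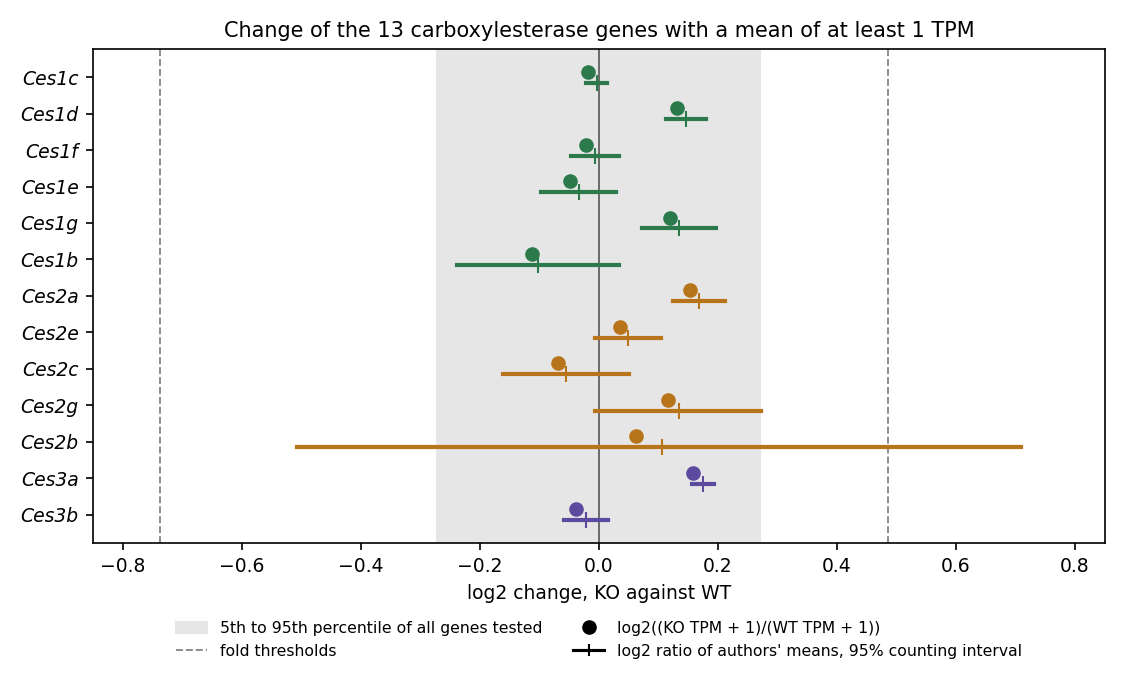
Log2 change of KO against WT for the 13 carboxylesterase genes averaging 1 TPM or more, by family: circles give the change in TPM, bars the 95% counting interval of the ratio of the authors' means with its value as a tick. Grey marks the 5th to 95th percentile of all genes tested (-0.27 to 0.27) and dashed lines the fold thresholds of 0.6 and 1.4; the bars of Ces1d, Ces1g, Ces2a and Ces3a lie to the right of 0 and inside the grey band.

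Counting intervals above a ratio of 1 were common among abundant genes, so that their number among the members is no result about the family. Of the 9 members from 100 TPM upward, 4 had an interval above 1 (Ces1d, Ces1g, Ces2a and Ces3a), 0 had one below 1 and 5 had one that held 1, against the background of 35.0% above and 24.1% below. The intervals of Ces1c and Ces3b end at 0.014 and 0.015 on the log2 scale. The ratio of TPM lies lower than that of the means by about as much, so that their place depends on the scaling. By size, 2 of the 10 members (Ces2a and Ces3a) had a fold of at least 1.1, against 15.0% of all genes tested and 10.2% of those from 100 TPM upward, and 0 members had a fold of at most 0.909, against 17.8% and 10.7%. At a fold of 1.2 or its mirror, 0 members passed, against 5.39% of genes higher and 5.51% lower. The change of Ces3a stood at percentile 91.4 and that of Ces2c at percentile 25.4 of genes from 100 TPM upward.

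Of the 7 other genes with a Ces1, Ces2 or Ces3 symbol, 3 passed the filter and 0 were called. Ces1b stood at 29.53 TPM (KO) and 32.02 TPM (WT), with an interval of the ratio of 0.847 to 1.023. Ces2g stood at 20.13 TPM (KO) and 18.5 TPM (WT), with an interval of 0.996 to 1.209. Ces2b stood at 1.81 TPM (KO) and 1.69 TPM (WT), on 43 and 54 estimated reads. Its interval of 0.703 to 1.636 holds the higher fold threshold of 1.4, so that counting error alone leaves its ratio uncertain to that extent. The remaining 4, the pseudogene Ces2d-ps together with Ces1a, Ces2f and Ces2h, lay between 0.03 and 0.6 TPM. Of their estimated reads, Ces1a had 3 in KO and 2 in WT, and Ces2h had 7 and 4. The 7 genes together summed to 52.61 TPM (KO) and 53.11 TPM (WT). Outside these families, Ces4a stood at 3.64 and 3.68 TPM, and Ces5a at 0.04 and 0.03 TPM.

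Along the chromosome, levels varied far more between neighbours than between genotypes. In the Ces1 group, Ces1c lies between Ces1b and Ces1d, at 1906.16 TPM in KO against 29.53 and 518.1 TPM for those neighbours. In the other group, the carboxylesterase gene before Ces3a is Ces2h, which was at 0.37 TPM (KO) and 0.18 TPM (WT). The 4 genes with an interval above 1 were not adjacent: Ces1d and Ces1g are separated by Ces1e and Ces1f, and Ces2a and Ces3a stand near opposite ends of their group. Shared windows were also unequal. The transcripts of Ces1d, Ces1e, Ces1f, Ces1g and Ces2e had 0 windows of 100 bases in common with another gene, Ces1c shared 1.39% with Ces1b, and Ces2a shared 10.75% with the pseudogene Gm7208. Ces2c shared 15.98%, most of it with Ces2d-ps and with the pseudogene Gm8798, which was the largest shared part among the members. Windows that are alike but not identical were not searched, and the part of shared reads in the differences between the libraries was not tested.

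**Figure D3:**
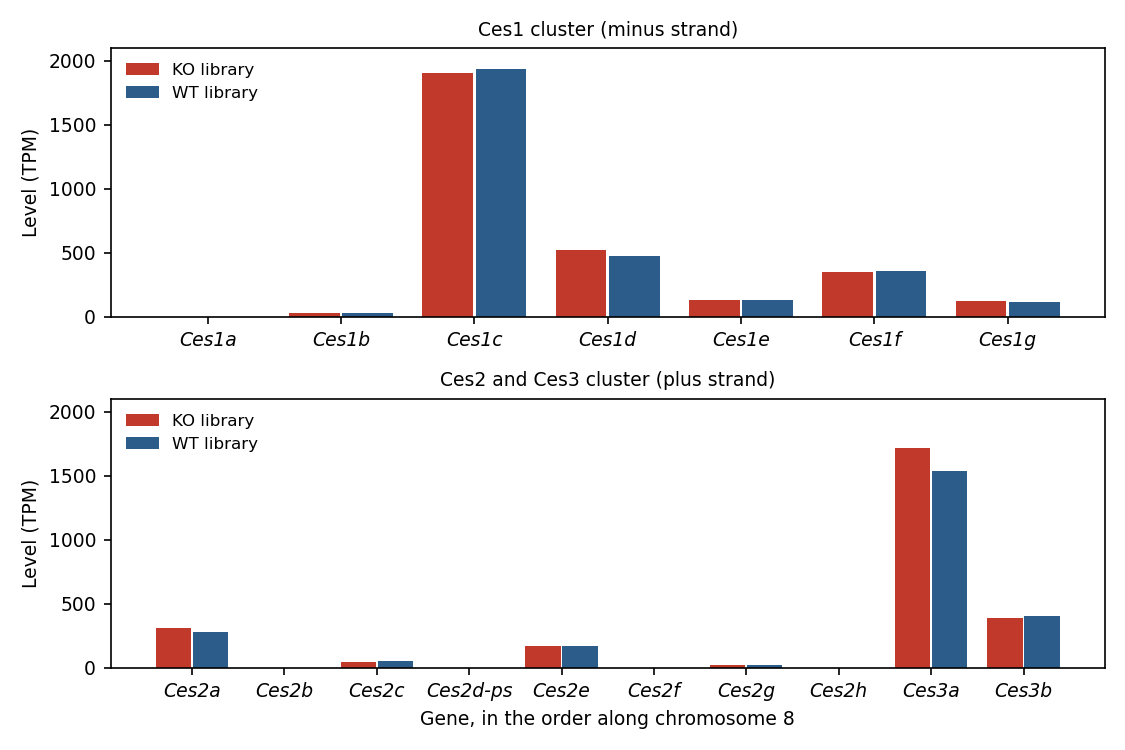
Level in TPM (linear axis from 0) of the 17 Ces1, Ces2 and Ces3 genes with a deposited level, in their order along chromosome 8. The Ces1 group is above and the Ces2 and Ces3 group below, with 1 bar per library. Ces1c and Ces3a stand above all neighbours in both libraries, while genes such as Ces1a, Ces2f and Ces2h lie near 0.

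Other genes of the same processes were compared as lists written from general knowledge. Their background is 45.8% of all genes tested above 0, with 1.21% called higher and 0.301% called lower. The esterases and lipases of liver outside the carboxylesterase family numbered 16 tested genes of 18, of which 0 were called and 10 lay above 0, with a median log2 change of 0.019. They ran from -0.12 for Pnpla2, the adipose triglyceride lipase, to 0.20 for Nceh1, a neutral cholesterol ester hydrolase. Of 13 genes of VLDL assembly, the process that Ces1d feeds with lipid, 0 were called and 3 lay above 0, with a median of -0.058. They ran from -0.30 for Pltp, the phospholipid transfer protein, to 0.07 for Tm6sf2, an ER protein needed for VLDL lipidation. Ces1d at 0.13 lay above each of these 13 values.

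Nuclear receptors and other regulators that are known to act on carboxylesterase genes or on drug metabolism in general gave 0 calls among 16 genes. Their median was -0.032, with 6 values above 0. The lowest was Nr0b2, the repressor SHP, at 44.42 TPM (KO) and 59.37 TPM (WT) (log2 change -0.41). The highest was Nr1i3, the xenobiotic receptor CAR, at 83.36 TPM (KO) and 72.46 TPM (WT) (0.20). Target genes of CAR and of PXR, the pregnane X receptor, other than esterases gave 3 calls higher and 0 lower among 18 genes tested of 20, with a median of 0.035 and 11 values above 0. Over all genes tested, 1.21% were called higher and 0.301% lower, the median was -0.013 and 45.8% lay above 0. The 3 called genes of the list were the cytochromes P450 Cyp2b10 at 18.24 TPM (KO) and 8.7 TPM (WT), Cyp3a11 at 3952.15 and 2808.29 TPM, and Cyp2c55 at 11.39 and 7.85 TPM, the last of which lies on the threshold itself at a fold of 1.4. The lowest was Gstm3, a glutathione transferase, at 42.9 TPM (KO) and 68.62 TPM (WT) (-0.67). A lower cut at 0.714, the mirror of 1.4, would take in Gstm3 (fold 0.631) and Gsta1 (0.708), so the list did not move only upward. Ces2a, a known target of these receptors, was not called, at a fold of 1.112. The uncalled genes of the list ran in fold from 0.631 for Gstm3 to 1.385 for Cyp2c37.

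Genes of ER retention and glycoprotein folding, through which ER carboxylesterases pass, lay below 0 in all 10 tested of 11, with 0 calls and a median of -0.163. They ran from -0.54 for Hspa5, the chaperone BiP, at 420.31 TPM (KO) and 612.02 TPM (WT), to -0.06 for Pdia3, a disulfide isomerase of glycoproteins. The fold of Hspa5, 0.687, lay beyond the mirror of 1.4 (0.714) but not beyond 0.6. The 7 members that end in the retention pattern summed to 1656.57 TPM (KO) and 1577.97 TPM (WT), a ratio of 1.05. Their single folds ran from 0.953 for Ces2c to 1.112 for Ces2a. Of the members without the pattern, the secreted Ces1c had a fold of 0.987, Ces3a 1.116 and Ces3b 0.974. The folds therefore did not separate by ending.

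**Figure D4:**
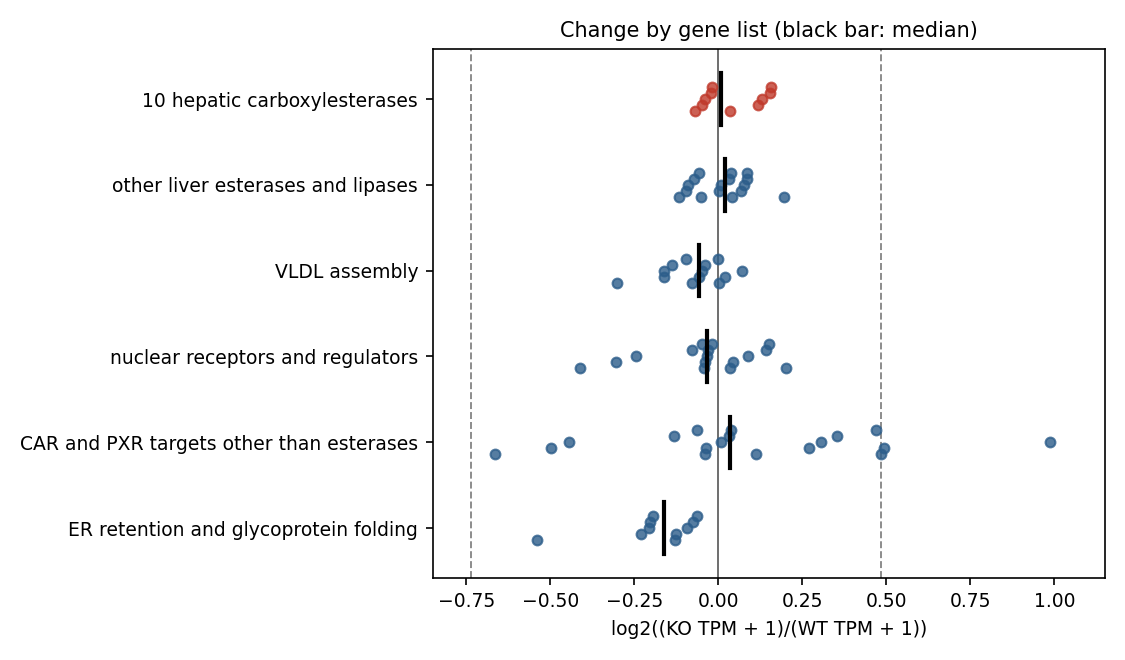
Log2((KO TPM + 1)/(WT TPM + 1)) of each tested gene by list, with the list's median as a black bar and the fold thresholds as dashed lines. The 10 carboxylesterases lie between -0.07 and 0.16 with a median of 0.009, the genes of ER retention and folding all lie below 0, and of the lists shown only the CAR and PXR list holds genes past a threshold, with Cyp2c55 on it.

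Defining markers of hepatocytes were abundant in both libraries. The marker counts below stand against 45.8% of all genes tested above 0, 1.21% called higher and 0.301% called lower. The 10 on the list lay above 0 in 3 (median -0.08) and summed to 78006.39 TPM (KO) and 81039.65 TPM (WT). Markers of pericentral hepatocytes lay above 0 in 10 of 10 (median 0.21; summed 6488.48 TPM in KO and 5902.84 in WT; Rhbg and Tbx3 called higher), and those of periportal hepatocytes in 1 of 10 (median -0.17; 5052.94 and 5805.65 TPM). Kupffer cell markers lay above 0 in 9 of 10 (median 0.17; 393.62 and 349.43 TPM), and stellate cell markers in 2 of 10 (median -0.09; 268.96 and 297.6 TPM). Endothelial markers did so in 0 of 10 (median -0.10; 220.49 and 242.35 TPM), though the highest, Stab1 at -0.008, lies so near 0 that its side depends on the scaling. Tested markers of cholangiocytes lay above 0 in 1 of 4 (62.35 and 67.32 TPM), of lymphocytes in 1 of 2 (8.51 and 8.35 TPM) and of red cells in 2 of 5 (1412.68 and 1429.18 TPM), with Hbb-bs called lower. Of the markers with a deposited level, none was listed at 0 in both libraries. Adgre1 of the Kupffer cell list and Trbc2 of the lymphocyte list had no deposited level and could not be looked at. The part of these shifts in the carboxylesterase values was not tested.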

How the data were processed

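RNA of 5 livers per genotype was pooled before library preparation (Illumina TruSeq Stranded Total RNA), and paired reads of 100 bases were aligned to mm10 by the authors with RSEM 1.2.09 and Bowtie, after CASAVA 1.8.2, per the submitters' processing notes. The authors deposited posterior mean TPM for 24054 genes (totals of 1005325 for KO and 994702 for WT) and, from EBSeq, a normalized signal per library (estimated reads over the size factor) for 16318 genes. The signal columns carry no genotype in the file; the study's own copy of that table names them. The authors' fold and probability columns (4) were not used. Taking the most frequent low signal as 1 read, 78.6% of KO and 75.0% of WT values were whole within 0.02. No p-value was computed from these estimated reads, and the counting intervals used them rounded to whole numbers.

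Log2 changes used a pseudocount of 1 TPM, which understates the change of low genes; the filter was a mean of at least 1 TPM and the thresholds were folds of 1.4 and 0.6. Intervals are Clopper-Pearson at 95%. Coding sequences came from GENCODE M21 (the longest complete one per gene, aligned globally) and loci from RefSeq, both on GRCm38. Identical 100-base windows were searched in all transcripts. Named genes were Pgrmc1, all Ces1, Ces2 and Ces3 genes, the annotated gene on each side of each group, and, of every further list, the called genes and those with the highest and lowest change; of these, the extremes of the marker lists and neighbours outside the table are not printed, and other names were chosen after their values were seen. Members and lists were chosen with earlier results of these data known. Alternatives varied the pseudocount, filter, scaling, thresholds and summing. Calls and intervals were tested on simulated data with counting error only and with changes that lay past the thresholds. Spread between mice, division of reads between paralogs and changes as small as those of the members were not simulated. Python 3.11.15, numpy 2.4.6, pandas 2.3.3, scipy 1.17.1, Biopython 1.88 and matplotlib 3.10.9 were used.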

Additional observations from a re-analysis of the deposited data

How the results depend on the processing

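No paired analysis was possible because 1 library stands for each genotype. The 10 members gave 0 calls in either direction under every planned threshold, filter, pseudocount and scaling; with rules chosen after seeing the data, 2 were higher at a fold of 1.1 and 4 by counting interval. Of 54 recomputed values of single members, 1 changed sign, that of Ces3b when summed with Ces3a. The sum gave 0.12 for both, in place of -0.039 for Ces3b and 0.158 for Ces3a. Apart from sums with genes that share windows, no alternative moved a member by more than 0.018. Before centring, all genes had a median of -0.014 to -0.003.

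The log2 ratio of the members' sums (0.058) was 0.076 with the authors' means, 0.071 after centring, 0.098 without Ces1c and, chosen after seeing the data, 0.016 without Ces3a, and that of all 17 genes 0.075, 0.07, 0.096 and 0.016. With the authors' means the Ces1 ratio was 0.027. Leaving out the most abundant member gave 0.059 for Ces1, 0.012 for Ces2 and -0.039 for Ces3. Beyond the choice of genes summed, the cause was not tested.

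Over all genes, 141 were higher and 35 lower. The counts were 280 and 70 with 0.1 TPM, 303 and 75 with 0.01 TPM, 296 and 80 with the authors' means, 45 and 13 at folds of 2 and 0.5, 627 and 640 at 1.2 and its mirror, 1738 and 2069 at 1.1 and its mirror, 1354 and 1544 by counting interval, and 62 and 17 at a minimum of 10 TPM. With the mirror of 1.4, 118 were lower. The hepatocyte marker median (-0.077) was -0.063 after centring and -0.131 after rescaling, and the red cell median (-0.144) was 0.044 with the authors' means and -0.044 without a filter. Counting intervals of the abundant members are narrow, and the spread between mice is unknown.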
